A study of Mus musculus with 6 samples.

Results

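The machinery that trims the ends of DNA double-strand breaks, and the protein that then coats the bared single strands, was followed in mouse spermatocytes through 10 genes taken by symbol from the expression table: Exo1, Dna2, Blm, Rbbp8, Mre11a, Rad50, Nbn, Rpa1, Rpa2 and Rpa3. All 10 were among the 53700 genes listed, and all 10 had enough counts to be among the 16829 tested. The messenger RNA of 3 circSry KO and 3 WT libraries was compared. Both groups were primary spermatocytes, the germ cells in meiotic prophase, flow-sorted after Hoechst staining from testes of C57BL/6 mice aged 8 weeks. The circSry KO mice lack the circular RNA of the sex-determining gene Sry, and the WT mice carry no engineered allele that the labels name. How the knockout was made, and how many animals gave each library, is not stated. A p-value here therefore reflects the spread among 6 libraries, part of which may be technical.

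Meiotic recombination starts with programmed double-strand breaks. The MRN complex (MRE11, RAD50 and NBN), together with CtIP, the product of Rbbp8, nicks the broken end and starts its resection. The exonuclease EXO1, or the nuclease DNA2 working with the helicase BLM, can then carry resection further, and the RPA trimer covers the exposed strand before recombinases replace it. EXO1 is known in mouse meiosis also for a later role in crossover formation, and the meiotic proteins MEIOB and SPATA22 bind single strands together with RPA.

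The study's title names miR-138-5p, a microRNA that it describes as bound by circSry, so matches to its seed were looked up in the 3′ UTRs of the 10 genes. The mature sequence from RefSeq (GRCm38.p6) has its seed, bases 2 to 8, in capitals, and it is encoded by Mir138-1 on chromosome 9 and Mir138-2 on chromosome 8.
miR-138-5p: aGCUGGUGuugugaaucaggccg
A match to these 7 bases reads CACCAGC in the messenger RNA. Of the 10 genes, 3 had at least 1 match in the longest annotated 3′ UTR (GENCODE M21, GRCm38), and capitals mark it here with its flanks in the sense of the messenger.
Exo1, first match: tggaacttggcCACCAGCctagaaatgg
Exo1, second match: acaaaacaaaaCACCAGCtgtacaacta
Rpa1: aaaaatcagatCACCAGCagggctgcct
Mre11a: cggacctcctcCACCAGCagcacactgg
The Exo1 matches lie at chr1:175912585-175912591 and chr1:175913344-175913350 on the plus strand, at bases 4020 and 4779 of a 3′ UTR of 4924 bases. The Rpa1 match lies at chr11:75298532-75298538 on the minus strand, at base 2767 of 3139. The Mre11a match lies at chr9:14834510-14834516 on the plus strand, at base 847 of 3460. Those of Rpa1 and Mre11a are followed by an A, the base that favours microRNA binding opposite the first position. Among tested genes with an annotated 3′ UTR, 1915 of 13890, or 13.8%, hold the same 7 bases, and the median 3′ UTR there is 1059 bases, shorter than in these 3 genes. A match is a string of letters and does not show binding.

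Libraries held 8191397 to 9294723 estimated counts in circSry KO and 7400360 to 8422943 in WT. Sry had 0 counts in all 6 libraries; its gene-level count says nothing of the circular form, so these values give no check of the knockout. circSry KO replicate 3 stood apart. Its log2 CPM across genes (CPM are counts relative to library size, scaled by TMM) correlated at 0.878 and 0.778 with the other circSry KO libraries and at 0.927 with WT replicate 1, against 0.946 between the other circSry KO libraries. When genes were split into 5 equal bins of length, its longest genes sat at a median of -0.86 and its shortest at 1.21 log2 units relative to the WT mean. circSry KO replicate 1 leaned the same way, at -0.44 and 0.65, and replicate 2 was near flat, at 0.06 and 0.09. The WT libraries sat at -0.32 and 0.31 (replicate 1), 0.26 and -0.23 (replicate 2), and 0.09 and -0.07 (replicate 3). The markers of the labelled cell type were present in all libraries: the 10 for pachytene and diplotene spermatocytes summed to 10497, 8897 and 14247 CPM in circSry KO and 10616 to 13046 CPM in WT. The 10 elongating spermatid markers summed to 16028, 11732 and 6256 CPM in circSry KO, above the spermatocyte sum in replicates 1 and 2, and to 1969 to 3192 CPM in WT, with 7 of 10 higher in all circSry KO libraries. The 10 round spermatid markers summed to 2012 to 3040.2 CPM in circSry KO and 701 to 1342 CPM in WT, with 8 of 10 higher in all circSry KO libraries. The 10 preleptotene to zygotene markers, of the stages in which breaks are made and resected, summed to 576, 555 and 1659 CPM in the 3 circSry KO libraries and to 1102 to 1412 CPM in WT, with 3 of 10 lower in all circSry KO libraries. The log2 fold change, circSry KO over WT, was negative in 9 of these markers and positive in 1, with a median of -0.64. Meiob and Dmc1 among them are also in the list of pathway genes further below, so these lists share genes. Sertoli markers summed to 218 to 458 CPM in circSry KO and 142 to 195 CPM in WT, with 5 of 7 tested ones higher in all circSry KO libraries. Leydig markers summed to 236 to 588 CPM in circSry KO and 577 to 849.7 CPM in WT, with 7 of 8 lower in all circSry KO libraries. Macrophage markers summed to 51.1 to 479 CPM in circSry KO and 29.0 to 45.9 CPM in WT, with 4 of 9 tested ones higher in all circSry KO libraries. Endothelial and peritubular markers summed to 26.1 to 513 CPM in circSry KO and 72.8 to 119 CPM in WT, and spermatogonial markers to 791 to 1061 CPM in circSry KO and 718 to 1312 CPM in WT. The groups did not overlap in 0 of 8 endothelial and peritubular markers and in 3 of 10 spermatogonial ones, all higher. Of the 10 pachytene and diplotene markers, 2 were lower and 1 higher without overlap. Over all genes tested these shares were 14.3% lower and 14.1% higher. Of the marker genes, Sox9, Rhox5 and C1qc were at 0 in some libraries and none was at 0 in all. The part of these cells in the results was not tested, and in bulk RNA fewer cells of a type and less RNA per cell cannot be told apart.

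On counts of all 6 libraries, the 3 genes of long-range resection had the lowest fold changes of the 10, circSry KO over WT. None of the 3 passed an adjusted p of 0.05 in edgeR. Exo1 (chr1:175880581-175913489, plus strand) had 9.62, 9.92 and 11.7 CPM in the circSry KO libraries, against 21.7, 24.6 and 25.8 CPM in WT. Each circSry KO library was below each WT library, and the groups stood far apart relative to their spread: 10.4 ± 1.14 CPM in circSry KO and 24.0 ± 2.08 CPM in WT (SD, n = 3 each). Its log2 fold change, -1.20 ± 0.31 (SE), came with the smallest p among the 10 genes, with an adjusted p of 0.096 in edgeR's quasi-likelihood test. The counts behind it were 87, 86 and 92 in circSry KO and 158, 211 and 221 in WT.

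Dna2 (chr10:62947026-62974185, plus strand), the nuclease that cuts strands unwound by a helicase, had 4.31, 4.04 and 7.78 CPM in circSry KO, against 11.8, 16.7 and 12.6 CPM in WT. The groups did not overlap, though circSry KO replicate 3 was the closest to WT. Its log2 fold change, -1.35 ± 0.41, was the lowest of the 10, with an adjusted p of 0.117 in edgeR, on only 35 to 61 counts per library in circSry KO and 86 to 143 in WT. Blm (chr7:80454733-80535119, minus strand), the Bloom syndrome helicase, had 30.3, 32.0 and 25.9 CPM in circSry KO and 42.3, 64.5 and 53.2 CPM in WT. Here too all circSry KO libraries were below all WT libraries, with a log2 fold change of -0.86 ± 0.31 and an adjusted p of 0.156 in edgeR.

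For Exo1 and Dna2 the call depended on the tool and on 1 library, while Blm was called in none of the 16 alternative analyses. With DESeq2 the adjusted p was 0.008 for Exo1, 0.0331 for Dna2 and 0.0713 for Blm. Without circSry KO replicate 3, edgeR gave 0.00723 for Exo1, 0.00417 for Dna2 and 0.0503 for Blm, with log2 fold changes of -1.35, -1.76 and -0.82. All 3 stayed below 0 in each of the 16 alternative analyses, from -1.35 to -1.03 for Exo1, -1.76 to -1.06 for Dna2 and -0.99 to -0.58 for Blm. Blm was not among the 3 lowest of the 10 genes in all of them. Without circSry KO replicate 3, Rpa2 was lower than Blm, at -1.10. With each library's trend on gene length removed, Rpa3 was at -0.90 and Blm at -0.58.

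**Figure D1:**
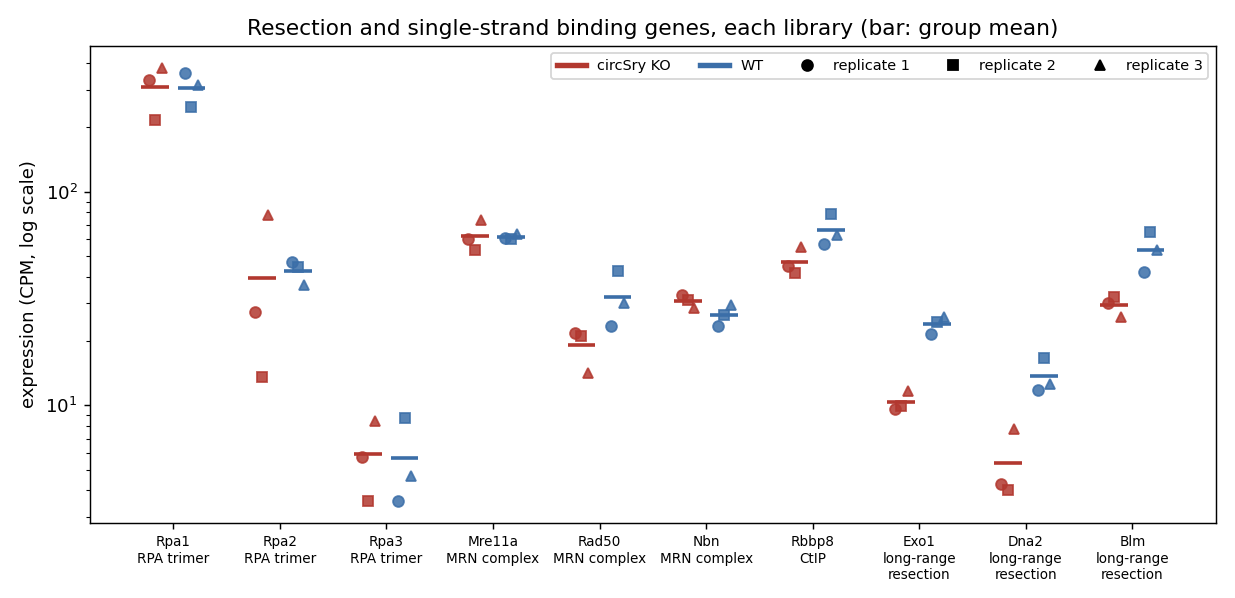
Expression of each gene in each library, in CPM on a log scale, with circSry KO in red left of WT in blue, bars at the group means and a symbol per replicate. Exo1, Dna2, Blm, Rbbp8 and Rad50 have all circSry KO libraries below all WT libraries, while Rpa1, Rpa2, Rpa3, Mre11a and Nbn overlap.

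The upstream sequences of 2 of these genes are shown because each of their circSry KO libraries was below all WT libraries and the promoter table holds them; each is a stretch at the upstream end of the RefSeq promoter window (GRCm38.p6) that lies outside annotated exons. In Dna2 (chr10:62946779-62947025, plus strand) capitals mark an E2F-like match and a MYB-like match, both on the reverse strand.
Dna2: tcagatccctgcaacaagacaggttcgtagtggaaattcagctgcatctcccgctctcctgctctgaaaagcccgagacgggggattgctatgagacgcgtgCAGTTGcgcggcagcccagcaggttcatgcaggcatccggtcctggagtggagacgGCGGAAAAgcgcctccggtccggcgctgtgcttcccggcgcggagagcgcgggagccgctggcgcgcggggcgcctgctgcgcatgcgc
In Blm (chr7:80535120-80535248, minus strand) capitals mark the CCAAT box, once on each strand.
Blm: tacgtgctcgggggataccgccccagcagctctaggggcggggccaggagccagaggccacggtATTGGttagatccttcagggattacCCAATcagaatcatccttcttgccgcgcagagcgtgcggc
The motifs searched, on both strands, were TTTNNCGC (E2F-like), CCAAT, and a MYB-like motif that starts with C or T, goes on with AAC and ends in TG or GG. Over 32851 promoter windows of 300 bases, 5.2% held the E2F-like letters, 28.3% a MYB-like match and 37.4% the CCAAT box. Of the 6 genes with a window in the table, the E2F-like letters were found in Dna2, a MYB-like match in Dna2 and Rpa1, and the CCAAT box in Blm, Rpa1, Rpa2, Rpa3 and Mre11a. The genes Exo1, Rbbp8, Rad50 and Nbn had no window there.

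Rbbp8 (chr18:11633276-11745221, plus strand), whose product CtIP activates the MRE11 nuclease at the start of resection, had 44.7, 41.5 and 55.1 CPM in circSry KO and 57.2, 78.4 and 62.5 CPM in WT. The groups did not overlap, but the highest circSry KO library and the lowest WT library were close. The log2 fold change was -0.49 ± 0.30 with an adjusted p of 0.358 in edgeR, and 0.0909 without circSry KO replicate 3.

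The 3 genes of the MRN complex did not show 1 direction. Rad50 (chr11:53649519-53707319, minus strand), the ATPase that tethers DNA ends, had 21.9, 21.2 and 14.2 CPM in circSry KO and 23.5, 42.8 and 30.2 CPM in WT. The groups were separated by a narrow margin, and circSry KO replicate 3 was the lowest. Its log2 fold change was -0.75 ± 0.36 with an adjusted p of 0.25 in edgeR. Mre11a (chr9:14784654-14837123, plus strand), the nuclease subunit, had 59.9, 53.1 and 73.6 CPM in circSry KO and 60.7, 60.1 and 63.3 CPM in WT. The WT libraries fell inside the range of the circSry KO libraries, and the log2 fold change was 0.02 ± 0.29 with an adjusted p of 0.976 in edgeR. Nbn (chr4:15957925-15992589, plus strand), the subunit that recruits the ATM kinase, had 32.8, 31.3 and 28.6 CPM in circSry KO and 23.5, 26.6 and 29.6 CPM in WT. It was the single one of the 10 whose circSry KO libraries all lay above the WT mean, with 1 WT library inside their range, a log2 fold change of 0.22 ± 0.30 and an adjusted p of 0.685 in edgeR.

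The RPA genes did not separate by genotype on the count scale. Rpa1 (chr11:75298166-75348324, minus strand), the large subunit that holds the main DNA-binding domains, had 334, 216 and 381 CPM in circSry KO and 358, 249 and 315 CPM in WT, with a log2 fold change of 0.01 ± 0.33 and an adjusted p of 0.986 in edgeR. Its groups overlapped, with WT inside the circSry KO range. Rpa2 (chr4:132768332-132778752, plus strand), the subunit phosphorylated after DNA damage, had 27.3, 13.6 and 77.7 CPM in circSry KO and 46.9, 44.3 and 36.7 CPM in WT. The WT libraries were close together, while the circSry KO libraries lay on both sides of them, so that the standard deviation was 33.7 CPM in circSry KO and 5.28 CPM in WT. The log2 fold change of Rpa2 was -0.11 ± 0.58, with an adjusted p of 0.928 in edgeR. Without circSry KO replicate 3 it was -1.10, with an adjusted p of 0.0302 in edgeR. It was 0.1 without circSry KO replicate 1 and 0.3 without replicate 2, so the value depended on single libraries. Rpa3 (chr6:8255936-8259173, minus strand), the small subunit, had 5.75, 3.58 and 8.42 CPM in circSry KO and 3.57, 8.75 and 4.66 CPM in WT. Both groups ranged widely on 26 to 75 counts per library, with a log2 fold change of 0.06 ± 0.51 and an adjusted p of 0.958 in edgeR.

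**Figure D2:**
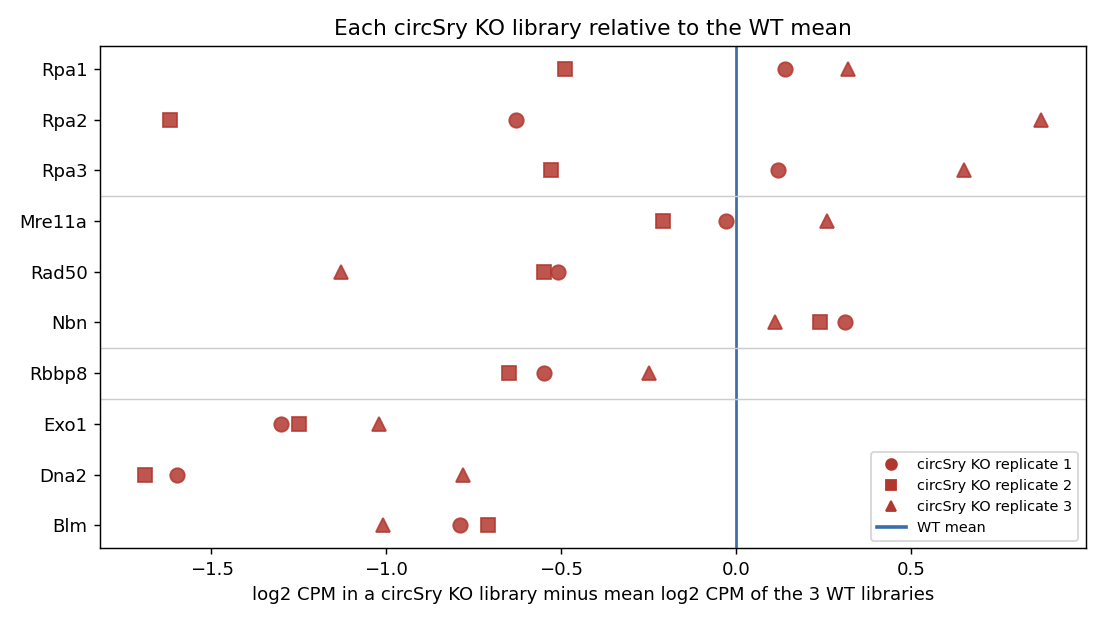
Log2 CPM of each circSry KO library minus the mean log2 CPM of the 3 WT libraries, per gene, with a symbol per replicate and the WT mean as a line at 0. circSry KO replicate 3 lies on the other side of 0 from both other circSry KO libraries for Rpa2 (0.87 against -0.63 and -1.62) and Mre11a, while all 3 lie below 0 for Exo1, Dna2, Blm, Rbbp8 and Rad50.

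circSry KO replicate 3 was the highest of the 3 circSry KO libraries for Rpa1, Rpa2, Rpa3, Mre11a, Rbbp8, Exo1 and Dna2, and the lowest for Rad50, Nbn and Blm. Relative to the WT mean it sat at -1.02 for Exo1, -0.78 for Dna2 and -1.01 for Blm on the log2 scale. circSry KO replicates 1 and 2 sat at -1.30 and -1.25 for Exo1, at -1.60 and -1.69 for Dna2 and at -0.79 and -0.71 for Blm. Offsets that removed each library's trend on gene length left log2 fold changes of -1.27 for Exo1, -1.14 for Dna2, -0.58 for Blm, -0.33 for Rad50 and -0.21 for Rbbp8. With the same offsets Rpa3 moved from 0.06 to -0.90, with an adjusted p of 0.333 in edgeR. Rpa2 was at -0.22, Rpa1 at 0.11, Mre11a at 0.33 and Nbn at 0.34.

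Over the 10 genes, edgeR called 0 at an adjusted p of 0.05, as it called 0% of all genes tested. At an unadjusted p of 0.05 it gave 3 lower in circSry KO (Exo1, Dna2 and Blm) and 0 higher, where the backgrounds over all genes were 9.84% lower and 13.6% higher. The groups did not overlap in 5 genes lower in circSry KO and in 0 higher, against 14.3% and 14.1% of all genes. With DESeq2, 2 genes (Exo1 and Dna2) were lower at an adjusted p of 0.05, against 4.66% of all genes. Without circSry KO replicate 3, edgeR gave 3 lower (Exo1, Dna2 and Rpa2) and 0 higher, against 16.2% and 18.5% of all genes. The median log2 fold change of the 10 was -0.30, beside 0.12 over all genes tested, and -0.64 beside 0.02 without that library.

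Per transcript length the groups of Rpa1 separated, while those of Rpa2 and Rpa3 overlapped as they did in counts. In TPM, counts per transcript length relative to the library, Rpa1 had 166, 166 and 105 in circSry KO, against 203, 256 and 279.8 in WT, so the groups that overlapped in counts did not overlap here. The log2 fold change of Rpa1 on log2(TPM + 1) was -0.78 ± 0.32, with an adjusted p of 0.202 in limma. On counts with the length trend removed it was 0.11 ± 0.32, with an adjusted p of 0.855 in edgeR. Rpa2 was also lower on log2(TPM + 1), at -0.90 ± 0.42 (adjusted p of 0.25 in limma), beside -0.11 on counts. Rpa3 was at -0.37 ± 0.46 (adjusted p of 0.669 in limma), beside 0.06 on counts. Dividing the deposited counts by the deposited FPKM and the library total gives the effective gene length that the authors' estimates imply. For Rpa1 it was 2363, 1986 and 2778 bases in circSry KO and 2269, 1612 and 1704 bases in WT. The longest value was that of circSry KO replicate 3, and WT replicate 1 lay inside the circSry KO range. For Rpa2 the effective length was 1558, 1508 and 1538 bases in circSry KO and 1476, 1433 and 1521 bases in WT. The median log2 fold change over all genes was also below 0 on log2(TPM + 1), at -0.25, beside -0.84 over the 10 genes. In TPM the groups did not overlap in 5 genes lower in circSry KO (Rpa1, Rad50, Rbbp8, Exo1 and Dna2), against 20.7% of 17772 genes, while those of Blm overlapped. The log2 fold change of Blm on log2(TPM + 1), -0.66, was above those of Rbbp8 (-0.97), Rad50 (-0.90), Rpa2 (-0.90) and Rpa1 (-0.78).

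**Figure D3:**
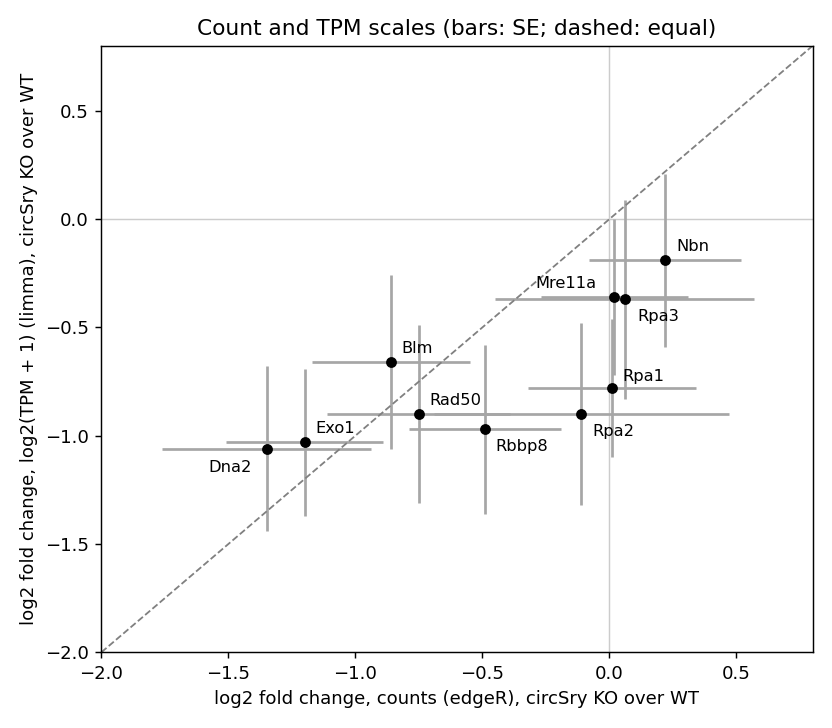
Log2 fold change of each gene on the count scale (edgeR, horizontal) against that on log2(TPM + 1) (limma, vertical), circSry KO over WT, with bars of 1 SE and a dashed line where both are equal. Exo1 and Dna2 lie near -1 or below on both scales. On the count scale Rpa1 lies at 0.01 and Rpa2 at -0.11, and on the TPM scale they lie at -0.78 and -0.90.

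Effective length differed between libraries for other genes too. For Exo1 it was 1359, 1450 and 1139 bases in circSry KO and 1516, 2221 and 1918 bases in WT, so both its counts and its length were lower in circSry KO. For Dna2 it was 2298, 2513 and 1875 bases in circSry KO and 2510, 3379 and 3503 bases in WT. For Blm it was 2765, 4089 and 1081 bases in circSry KO and 3308, 3024 and 3926 bases in WT, and circSry KO replicate 3, with the shortest Blm, had the highest Blm TPM of its group. The annotated Exo1 transcript with both miR-138-5p seed matches has 7796 bases, more than the effective length in any library, so these values do not show that the long 3′ UTR was in use.

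**Figure D4:**
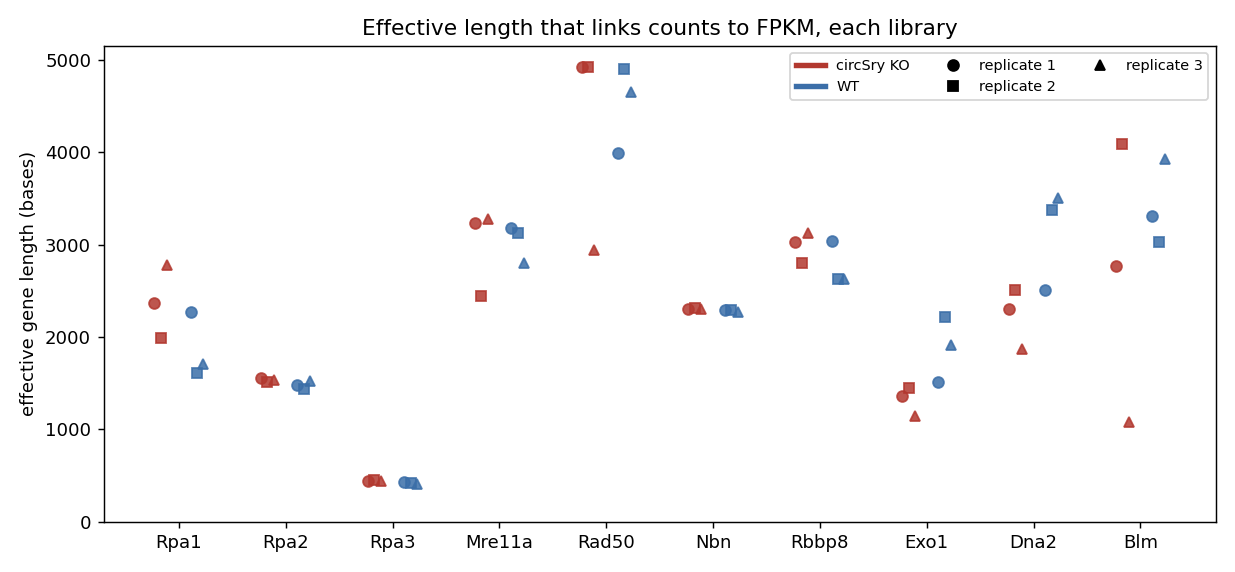
Effective gene length in bases that links counts to FPKM, per gene and library, with circSry KO in red left of WT in blue and a symbol per replicate. It was nearly constant for Rpa2, Rpa3 and Nbn, lower in all circSry KO libraries for Exo1, and down to 1081 bases for Blm in circSry KO replicate 3.

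Levels of different genes were compared per length, in TPM. In circSry KO, Rpa1 was highest at 145 ± 35.1 TPM (SD, n = 3), followed by Rpa2 at 24.3 ± 12.9, Mre11a at 24.0 ± 8.14, Rbbp8 at 17.8 ± 4.54, and Nbn at 15.6 ± 5.64 TPM. Below these came Blm at 14.4 ± 3.48, Rpa3 at 14.1 ± 1.7, Exo1 at 8.87 ± 1.36, Rad50 at 5.15 ± 1.44 and Dna2 at 2.61 ± 0.509 TPM. Neighbours from Rpa2 to Rpa3 in that order overlapped between libraries, and the ranges separated only between Rpa1 and Rpa2, Rpa3 and Exo1, Exo1 and Rad50, and Rad50 and Dna2. In WT, Rpa1 was again highest at 246 ± 39.1 TPM, followed by Rpa2 at 42.9 ± 7.54, Rbbp8 at 36.5 ± 12.6, and Mre11a at 30.2 ± 4.97 TPM. Below these came Blm at 24.1 ± 9.9, Rpa3 at 20.6 ± 12.1, Exo1 at 19.0 ± 1.1, Nbn at 17.4 ± 3.62, Rad50 at 10.6 ± 3.49 and Dna2 at 6.56 ± 1.43 TPM. There the ranges of neighbours separated only between Rpa1 and Rpa2.

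The subunits of each complex were unequal in messenger level within a library. Rad50 stood at 24.1%, 19.9% and 21.4% of the Mre11a TPM in circSry KO, against 30.9%, 45.3% and 28.8% in WT. These groups did not overlap, and the log2 difference of -0.66 had an exact two-sided permutation p of 0.1, the smallest that 3 against 3 libraries allow, or 0.4 adjusted over the 4 ratios tested. Nbn stood at 77.2%, 62.5% and 55.2% of Mre11a in circSry KO and 53.7%, 60.5% and 57.7% in WT, which overlap (exact permutation p of 0.4, adjusted 0.667). Rpa2 stood at 12.4%, 8.29% and 36.9% of Rpa1 in circSry KO and at 20.1%, 20.0% and 13.0% in WT (exact permutation p of 0.9, adjusted 0.9). Rpa3 stood at 9.35%, 7.37% and 14.0% of Rpa1 in circSry KO and at 5.23%, 13.3% and 6.12% in WT (exact permutation p of 0.5, adjusted 0.667).

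Other genes of the pathway were taken from a list of 42, of which 39 were tested; Shld1, Shld3 and Helb had too few counts. None was called by edgeR at an adjusted p of 0.05. At an unadjusted p of 0.05, 5 were lower in circSry KO (Spata22, Parp1, Rif1, Brca2 and Cdk2) and 1 higher (Dynll1), where the shares over all genes were 9.84% and 13.6%. The groups did not overlap in 8 lower and 2 higher, against 14.3% and 14.1% of all genes. The log2 fold change was negative in 27 and positive in 12, with a median of -0.45. Over all 16829 genes tested it was negative in 7522 and positive in 9307, with a median of 0.12. DESeq2 called 4 lower (Rif1, Parp1, Spata22 and Brca2), against 4.66% of all genes. Without circSry KO replicate 3, edgeR called 16 of 40 lower and 1 higher (Nabp1), against 16.2% and 18.5% of all genes.

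Among 7 genes of meiotic single-strand binding and recombinase loading, 6 had negative values. Spata22, which forms a single-strand binding complex with MEIOB, had 0.774, 0.461 and 4.08 CPM in circSry KO, against 21.4, 34.3 and 20.3 CPM in WT. All 3 circSry KO libraries were far below WT, and its log2 fold change of -3.84 ± 0.77 had an adjusted p of 0.087 in edgeR. That is the smallest adjusted p that edgeR gave, shared by many genes, and by unadjusted p Spata22 ranked 175 of 16829. Its counts were only 7, 4 and 32 in circSry KO, against 156, 294 and 174 in WT. Brca2, which loads the recombinases onto RPA-coated strands, had 42.6, 65.2 and 53.1 CPM in circSry KO and 79.7, 159 and 113 CPM in WT, with an adjusted p of 0.123. Hsf2bp, a germ-cell partner of BRCA2, had 49.1, 35.2 and 81.9 CPM in circSry KO and 80.9, 75.7 and 85.9 CPM in WT. circSry KO replicate 3 lay within the WT range, and the adjusted p was 0.397. Without that library 6 of the 7 were called lower, beside 16.2% of all genes.

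Of 13 tested regulators of resection, 10 had negative values. Rif1, which works with 53BP1 to hold back resection, had 81.6, 116 and 75.9 CPM in circSry KO and 146, 321 and 278 CPM in WT, with a log2 fold change of -1.44 ± 0.38 and an adjusted p of 0.0964 in edgeR. Parp1, the sensor that marks breaks with poly(ADP-ribose), had 74.5, 82.3 and 89.3 CPM in circSry KO and 162, 173 and 169 CPM in WT, with a log2 fold change of -1.03 ± 0.27 and an adjusted p of 0.0961 in edgeR. Neither gene overlapped between groups. Dynll1, a dynein light chain that also restrains MRE11, had higher values in circSry KO, with 456, 279.6 and 637 CPM in circSry KO and 250.3, 207 and 239.6 CPM in WT, and an adjusted p of 0.161. On counts, genes whose products restrain resection thus had values in both directions. With the length trend removed, the log2 fold change of Dynll1 was 0.36, beside 0.98 without that step, with an adjusted p of 0.416 in edgeR. That of Rif1 was then -1.05, with an adjusted p of 0.15 in edgeR.

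The 6 partners of BLM and related helicases all had negative values on counts of all libraries, small in most and -0.02 for Recql5. Not all signs held. Without circSry KO replicate 3, Wrn was at 0.06 and Recql5 at 0.15. With the length trend removed, Rmi2 was at 0.26, Wrn at 0.07 and Recql5 at 0.08, and the others stayed below 0. Top3a, the topoisomerase that acts with BLM, had 34.8, 27.6 and 60.2 CPM in circSry KO and 77.8, 65.1 and 60.7 CPM in WT, with an adjusted p of 0.265. Rmi1, a scaffold of the same complex, had 92.5, 78.8 and 117 CPM in circSry KO and 120.1, 129 and 124 CPM in WT, with an adjusted p of 0.466. In both, circSry KO replicate 3 came close to WT. Among 13 other genes whose products bind single strands or RPA, 5 had negative and 8 positive values. Tipin, a fork protection factor that binds RPA, had 52.9, 36.5 and 44.9 CPM in circSry KO and 33.8, 27.8 and 23.2 CPM in WT, with an adjusted p of 0.248. Rfwd3, a ubiquitin ligase that acts on RPA, had 64.3, 83.4 and 65.3 CPM in circSry KO and 83.3, 125 and 116 CPM in WT, with an adjusted p of 0.266. Rpain, the RPA import factor, had 26.4, 33.8 and 38.9 CPM in circSry KO and 27.9, 21.5 and 18.0 CPM in WT, with an adjusted p of 0.34. With the length trend removed, the log2 fold change went from 0.66 to 0.13 for Tipin, from -0.61 to -0.22 for Rfwd3 and from 0.56 to -0.16 for Rpain.

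**Figure D5:**
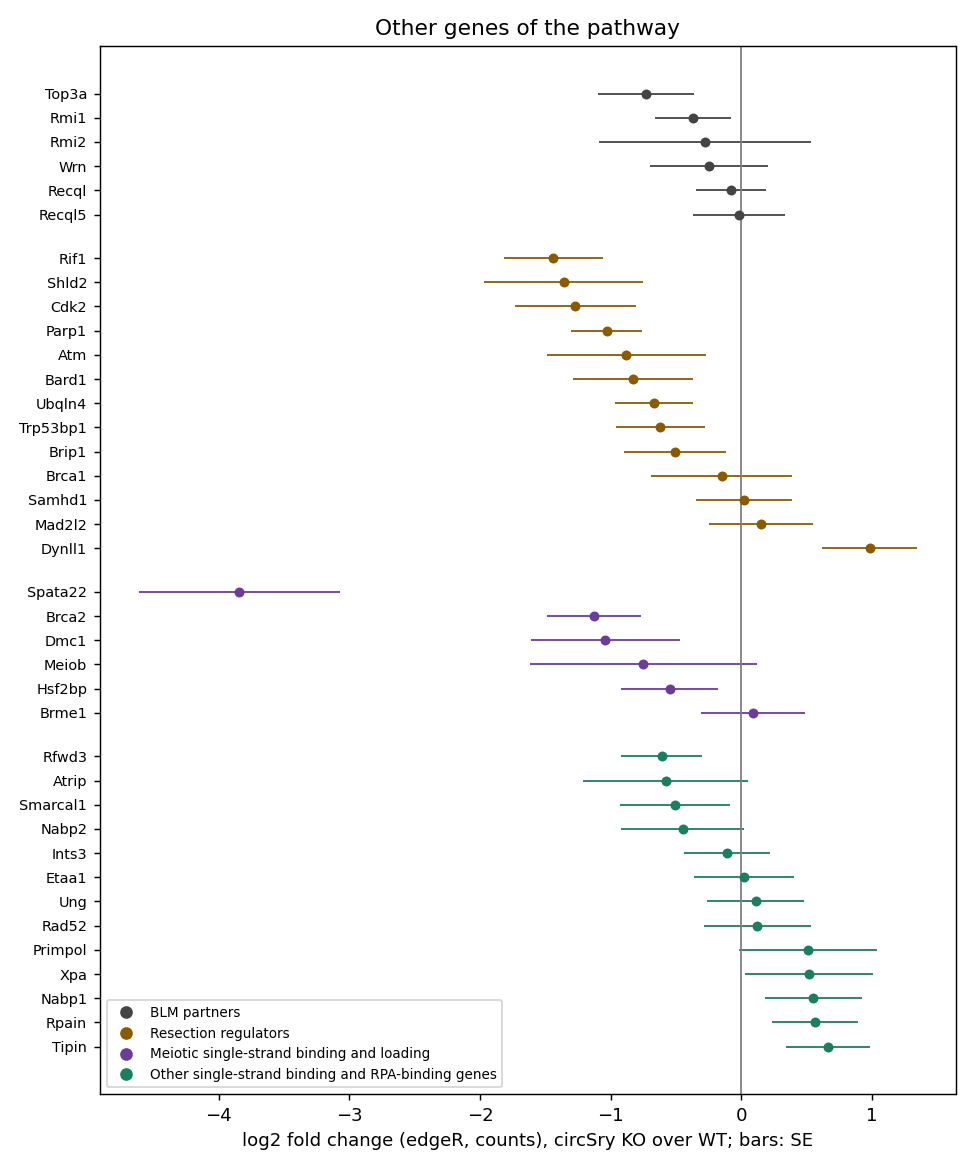
Log2 fold change on the count scale (edgeR), circSry KO over WT, for the tested pathway genes in 4 groups (1 of the 39 is not shown), with bars of 1 SE and a line at 0. Most values lie left of 0, Spata22 lies farthest at -3.84, and Dynll1 lies at 0.98.

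Across the 6 libraries, log2 CPM of Exo1 followed that of Dna2 (Pearson r of 0.95) and of Blm (0.90), Rbbp8 followed Dna2 (0.96), Rad50 followed Blm (0.95) and Rpa2 followed Mre11a (0.90), while Nbn and Dna2 ran opposite (-0.74). These are descriptions over 6 libraries that share the genotype split and their depth. Of 12255 other genes with at least 5 CPM on average, those most like Exo1 were Fcsk (r of 0.9978), Hyou1 (0.9964) and Nelfa (0.9963). Hyou1 had 93.7, 105 and 145 CPM in circSry KO and 436, 553 and 499.6 CPM in WT. Those most like Rpa1 were Dld (0.9884), Cabcoco1 (0.9852) and Particl (0.9829). Dld had 119.7, 91.7 and 126 CPM in circSry KO and 127, 96.8 and 118 CPM in WT, so its groups overlapped.

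Exons of other annotated genes lie within the span, introns included, of 7 of the 10 genes, Ankrd49 in Mre11a among them. Whether they overlap exons of the 10 genes was not checked. The kit does not mark strand, so reads from any shared exon bases could not be told apart by strand. No such gene overlaps Rpa2, Rpa3 or Dna2.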

How the data were processed

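Expression was measured by RNA sequencing (TruSeq RNA kit) in 3 circSry KO and 3 WT libraries of sorted primary spermatocytes, grouped by the genotype in the labels. Per the file headers, the authors' tables give each library's expected counts, FPKM and TPM, and only the counts were deposited without scaling. Tools named in the submitters' processing notes are RSEM 1.3.2, STAR 2.7.0f and edgeR 3.28.1; mm9 and GRCm39 are named as builds without a role. The 2 deposited tables differ in 1 TPM value, in none of the 10 genes.

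Expected counts were rounded and tested in R 4.3.3 with edgeR 4.0.16 (TMM, filterByExpr, quasi-likelihood F test on genotype, Benjamini-Hochberg over all genes tested, threshold 0.05). Standard errors were taken as the absolute log2 fold change divided by the root of F. TPM were tested with limma 3.58.1 on genes that reached 1 TPM in at least 3 libraries, as log2(value + pseudocount), which understates changes of low genes. Effective length is deposited counts over the product of FPKM and the library's total count, scaled to bases. Alternative settings were upper-quartile and RLE factors, a filter of 1 CPM in 3 libraries or none, DESeq2 1.42.0, limma-voom, pseudocounts of 1 and 0.1, a replicate block, a lowess length trend removed (span 0.3) and each library left out in turn. The edgeR and limma-voom steps were tested on simulated data. Gene identifiers were matched to GENCODE M21 (GRCm38) for positions and 3′ UTRs; the authors may have counted on another build.

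All 10 genes are described. Of each of the 4 pathway gene groups, the 2 genes with the smallest unadjusted p and that with the highest mean TPM are named. For the member with the smallest p and that with the highest TPM, the 3 most correlated genes (log2 CPM, prior count 2) are named. The genes and lists were chosen with earlier results of these data known. The values of 1 pathway gene are not reported here.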

Additional observations from a re-analysis of the deposited data

How the results depend on the processing

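Over all genes, edgeR called 0 (at an unadjusted p of 0.05, 1656 lower and 2285 higher), and the replicate block, limma-voom, RLE and upper-quartile factors, the 1 CPM filter and the length correction also called 0, against 869 with no filter, 1943 with DESeq2, 6 on log2(TPM + 1), 7 on log2(TPM + 0.1) and 0 to 6228 with single libraries left out, the highest without circSry KO replicate 3. Of the 10 genes, 2 were called with DESeq2 and 0 to 3 with a library left out. Of the pathway genes, 2 were called with no filter, 4 with DESeq2 and 0 to 17 with a library left out. The median log2 fold change of the 10 was -0.84 on log2(TPM + 1), -0.86 on log2(TPM + 0.1), -0.48 with the replicate block and -0.64 to -0.14 with a library left out. The labels do not say that replicate numbers pair the samples. Deviations of same-numbered libraries correlated at 0.0354, 0.334 and -0.272, which cannot settle whether they do. Exo1, Dna2, Blm, Rad50 and Rbbp8 were below 0 in all 16 alternatives. Rpa1 changed sign to -0.03 with no filter, -0.01 with limma-voom and with the block, and -0.78 on both TPM scales, and ranged from -0.21 to 0.21 with a library left out. Rpa2 ranged from -1.10 to 0.30 and Rpa3 from -0.33 to 0.53 with a library left out, and Rpa3 was -0.37 and -0.39 on the TPM scales and -0.90 with the length correction. Mre11a was -0.03 with no filter, -0.36 and -0.37 on the TPM scales and -0.17 to 0.12 with a library left out, and Nbn was -0.19 and -0.20 on the TPM scales. The log2 ratio of Rpa2 over Rpa1 ranged from -0.78 to 0.30 with a library left out, and that of Rpa3 over Rpa1 was -0.78 with the length correction. The cause of these changes was not tested. Depth limits Rpa3 and Dna2 most.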
